A study of Mus musculus with 2 samples.

Results

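Histones are the proteins around which DNA is wound: H2A, H2B, H3 and H4 form the core of the nucleosome, and H1 binds the linker DNA between cores. Most are encoded by clustered, intron-poor genes that are transcribed mainly while DNA is replicated, and whose mRNAs end in a stem-loop in place of a poly(A) tail, although many of these genes also give some polyadenylated mRNA in cells that have stopped dividing. The clustered histone genes measured here were the 48 of 31784 gene rows whose deposited name begins with Hist1h, Hist2h, Hist3h or Hist4h. They were chosen by name alone, and the name also gave the class: 6 for H1, 15 for H2A, 11 for H2B, 8 for H3 and 8 for H4. All 48 matched a gene of the mouse RefSeq annotation (GRCm38.p6) by an older symbol. By that annotation 35 of the members belong to the Hist1 cluster on chromosome 13, 9 to Hist2 on chromosome 3, 3 to Hist3 on chromosome 11 and 1 to Hist4 on chromosome 6, and 3 rows are named or annotated as pseudogenes.

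The data came from 2 two-colour Agilent microarrays of mouse pituitary RNA. On each array, RNA pooled from 3 Brdt-/- mice was set against RNA pooled from 3 wild-type mice, all aged 8 weeks and of C57BL/6 background, with 2 pools per genotype. The Brdt-/- mice carry a knockout-first allele (tm1a), a lacZ and neo cassette in an intron of Brdt. The wild-type pools are labelled male, and no sex is given for the Brdt-/- pools. Brdt encodes a bromodomain protein of male germ cells that binds acetylated histone tails. The knockout pool carried Cy5 on array 1 and Cy3 on array 2. Values below are log2 ratios of Brdt-/- to wild type, array 1 first, and a value of 1 is a 2-fold difference. The direction is likely rather than settled: both deposited columns were taken as Cy5 over Cy3, since the 10 control rows for E1A spike-in RNA each kept their sign between the columns, and array 2 was therefore turned. Without turning, each array 2 value below changes its sign. The gene rows themselves shared more between the columns as deposited: Pearson's r over all gene rows was 0.26 there and -0.26 after turning, and limma took 10.2% of rows at an unadjusted p under 0.05 as deposited against 2.21% after turning, with 0 rows past the adjusted test either way. Every ranking of members by mean or by evenness below was made on the turned values and can change without turning. As-deposited values are given for some members only. Brdt was at -0.30 and -0.43 (limma, adjusted p = 0.999995), lower on both arrays but not past the test, and no label says on which side of the cassette its probes lie.

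Histone transcripts are unusual targets for this assay. The labelling kit named in the labels is known to prime from poly(A) tails, so how much of each stem-loop transcript it captured was not tested. Copies of a class share near-identical coding sequence, so the reading of a row can include RNA of its relatives, and rows of 1 class are not independent. The files hold ratios and no intensities: signal over background, and whether the pituitary's own markers are present, were not examined here, and fewer cells of a type cannot be told apart from less RNA per cell.

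The median ratio of the histone genes lay near 0 on each array, as did that of all gene rows. With 2 arrays and an unsettled orientation, a small difference between the genotypes could not be told from none. The median ratio over the 48 members was -0.040 on array 1 and -0.042 on array 2, beside -0.030 and 0.034 over all gene rows. On both arrays 27 of the 48 members (56.2%) lay within 1.2-fold of equality, against 47.8% of all gene rows. No member was past 1.5-fold on both arrays with a shared sign, where 0.359% of all gene rows were past it as higher and 0.453% as lower. None of the 48 passed limma's test adjusted over all genes (adjusted p = 0.999995 for each), and 0% of all 31784 rows did. At an unadjusted p under 0.05 limma took 1 member, Hist1h3a, and 2.21% of all rows. The ordinary one-sample statistic took 4 members unadjusted. Its unadjusted share over all rows was not counted, so no excess among the members can be read from these 4. After adjustment it took 0 members and 2 of all rows. As deposited, the 1 member that limma took unadjusted was Hist1h2ab in place of Hist1h3a.

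The sign was shared by both arrays in 23 members, of which 6 were higher and 17 lower in the Brdt-/- pools. Among all gene rows 21.6% were higher and 19.5% lower on both arrays. Another 22 members had opposite signs and 3 had a ratio of exactly 1 on an array. The excess of lower members depends on the orientation of array 2: with that array as deposited, 11 members were positive and 11 negative in both columns, 22.9% each, against 23.3% and 35.4% of all gene rows. The shared signs were mostly of small size, since only Hist1h1t, Hist1h3a and Hist3h2ba were past 1.2-fold the same way on both arrays. These 3 are 1 higher member, against 2.43% of all gene rows, and 2 lower members, against 2.91%. As deposited none of these 3 was past 1.2-fold with a shared sign; Hist1h2ab (positive) and Hist3h2bb-ps (negative) were, against 6.28% and 6.45% of all gene rows. The plot of each member by class shows these values for all 48 genes.

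**Figure D1:**
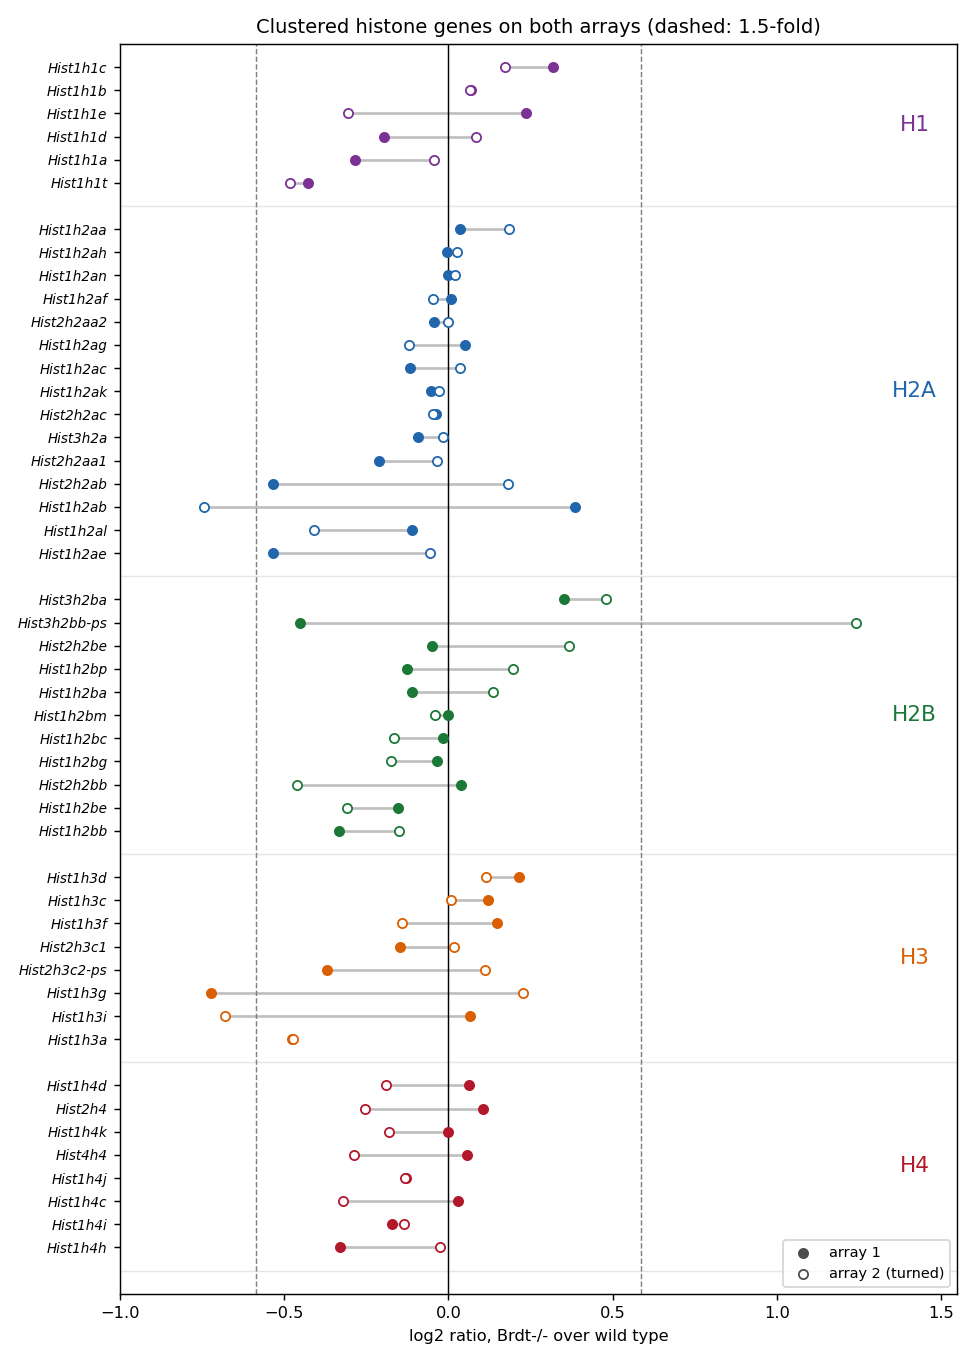
Log2 ratio of Brdt-/- over wild type (x axis) for each of the 48 clustered histone genes (rows, grouped by class and sorted by mean), with filled circles for array 1, open circles for array 2 after turning and dashed lines at 1.5-fold. No gene has both circles beyond the same dashed line, and all 8 open circles of H4 lie left of 0, which they would do to the right of 0 without turning.

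Single arrays held few large ratios. On array 1, 1 member was past 1.5-fold lower (Hist1h3g) and 0 were past it higher, against 6.63% and 7.19% of all gene rows. On array 2, 1 member was past 1.5-fold higher, the pseudogene row Hist3h2bb-ps, and 2 were past it lower, Hist1h2ab and Hist1h3i, against 3.52% and 5.67% of all rows. After turning, each of these 4 rows had the opposite sign on the other array. As deposited, each of the 4 had the same sign in both columns. The median size of the ratio, whatever its sign, was 0.12 on array 1 and 0.15 on array 2 for the members, beside 0.19 and 0.16 for all gene rows. Across the 48 members Pearson's r between the arrays was -0.22, as a description of genes that share both arrays and, within a class, much of their sequence. Over all gene rows it was -0.26. As deposited, r was 0.22 across the members and 0.26 over all gene rows.

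**Figure D2:**
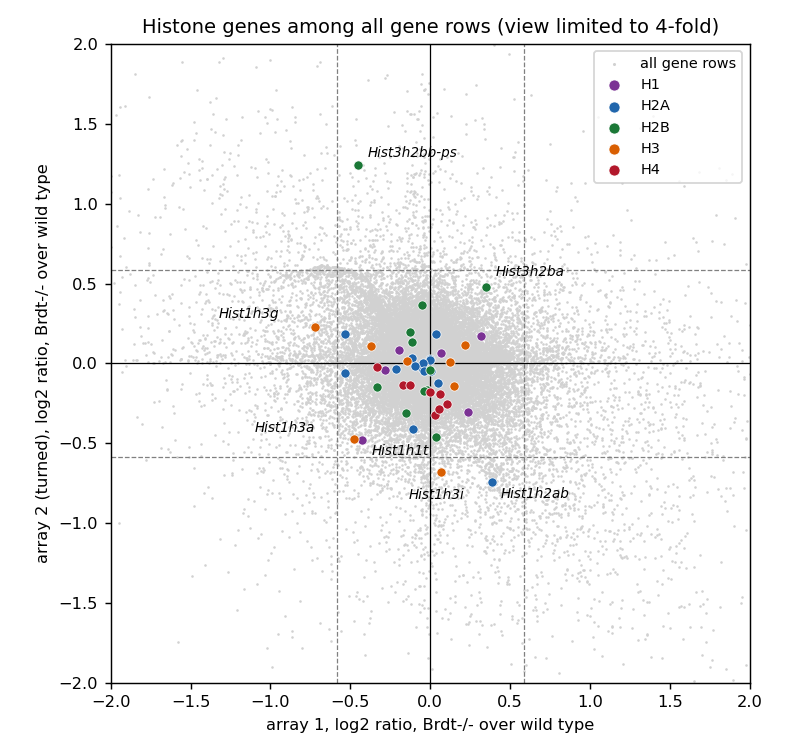
Ratio on array 1 (x axis) against the turned ratio on array 2 (y axis), both as log2 of Brdt-/- over wild type, for all gene rows (grey) and the histone genes (coloured by class), with dashed lines at 1.5-fold. The view stops at 4-fold and leaves out 228 gene rows; no histone gene lies in a corner beyond both dashed lines with the same sign.

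Among H1 genes the turned arrays gave the testis form the largest mean. Hist1h1t, the linker histone of spermatocytes, was at -0.43 and -0.48, a mean of -0.45 ± 0.038 (SD, n = 2). It was lower on both arrays by nearly the same amount, but limma's unadjusted p was 0.0513 and its 95% interval ran from -0.91 to 0.0044. As deposited its mean was 0.027, and the largest H1 mean was that of Hist1h1e, 0.27. Hist1h1c, a somatic linker histone gene, was at 0.32 and 0.17, a mean of 0.25 ± 0.10 (SD, n = 2), higher on both. As deposited, the mean of Hist1h1c was 0.074. Hist1h1b was at 0.070 and 0.067, and Hist1h1a was at -0.28 and -0.043. Hist1h1d and Hist1h1e had opposite signs, at -0.20 and 0.083 and at 0.24 and -0.31. The H1 medians were -0.064 and 0.012, over 3 higher and 3 lower members on each array. The median size on array 1 was 0.26, beside 0.19 for all gene rows, and 2 of the 6 members lay within 1.2-fold on both arrays, the lowest share of the 5 classes.

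Hist1h1t and Hist1h1c were the 2 H1 genes with the largest turned means, in opposite directions. Their promoters are shown because they hold the same kinds of element, the CCAAT box and the H1 box, although Hist1h1t is a testis gene. The letters are the 250 bases before the start of each gene, from RefSeq on GRCm38.p6, at chr13:23695561-23695810, plus strand, and at chr13:23738557-23738806, plus strand. Here and below, capitals mark each match, on either strand, to TATAAA (the TATA box), CCAAT (the CCAAT box, bound by NF-Y), ATTTGCAT (the octamer, bound by Oct1), AAACACA (the H1 box) and GGTCCG (part of the H4 element bound by HINFP).
Hist1h1t: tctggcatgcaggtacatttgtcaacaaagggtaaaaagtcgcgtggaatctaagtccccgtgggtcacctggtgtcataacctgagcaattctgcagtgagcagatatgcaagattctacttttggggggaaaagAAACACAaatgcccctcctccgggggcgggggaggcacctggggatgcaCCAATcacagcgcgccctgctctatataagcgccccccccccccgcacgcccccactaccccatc
Hist1h1c: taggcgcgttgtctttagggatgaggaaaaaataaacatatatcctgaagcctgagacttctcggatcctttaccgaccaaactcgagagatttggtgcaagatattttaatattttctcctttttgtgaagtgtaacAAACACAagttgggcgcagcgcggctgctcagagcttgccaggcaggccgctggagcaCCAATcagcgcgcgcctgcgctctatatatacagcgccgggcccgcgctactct
AAACACA was in 5 of 6 H1 promoters, against 6.25% of all 32851 promoter windows of this length. CCAAT was in 6 of 6, against 33.8%, and TATAAA in 4 of 6, against 12.4%. A match is a description and no proof of binding, and a match that ends past the start was not counted. Only these exact letters were marked, at any distance from the start, so a marked TATAAA need not be a working TATA box.

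H2A had the largest share of members within 1.2-fold on both arrays, 11 of 15. The H2A medians were -0.043 and -0.029. Hist1h2aa, the testis H2A gene, was at 0.037 and 0.19. The twin genes Hist2h2aa1 and Hist2h2aa2 were at -0.21 and -0.034 and at -0.043 and 0. All 3 of these rows lay within 1.2-fold of equality on both arrays. Hist1h2ae had the largest mean in the class, at -0.54 and -0.058, a mean of -0.30 ± 0.34 (SD, n = 2), and array 1 carried most of it. Hist1h2al, annotated as a transcribed pseudogene, was at -0.11 and -0.41. After turning, the widest disagreements in the class were Hist1h2ab, at 0.38 and -0.75, and Hist2h2ab, at -0.53 and 0.18, with means of -0.18 each. As deposited both had a shared sign, with means of 0.56 for Hist1h2ab (limma, unadjusted p = 0.0489, adjusted p = 0.487) and -0.36 for Hist2h2ab. Hist1h2af, Hist1h2ag, Hist1h2ah, Hist1h2ak, Hist1h2ac, Hist1h2an, Hist2h2ac and Hist3h2a had turned means of at most 1.04-fold in either direction.

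Hist1h2ab is shown because its reading turns on the orientation of array 2 and its promoter holds 4 of the 5 elements searched; its window lies at chr13:23750838-23751087, plus strand.
Hist1h2ab: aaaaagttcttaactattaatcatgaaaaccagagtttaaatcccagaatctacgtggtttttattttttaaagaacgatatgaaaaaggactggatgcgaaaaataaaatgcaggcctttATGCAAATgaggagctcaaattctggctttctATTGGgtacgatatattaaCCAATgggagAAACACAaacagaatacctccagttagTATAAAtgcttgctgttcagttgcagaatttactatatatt
The octamer was in 7 of 14 H2A windows and 6 of 9 H2B windows, and in none of the H1, H3 and H4 windows, against 1.60% of all windows. CCAAT was in 14 of 14 H2A and 9 of 9 H2B windows. H2A members with the octamer had median ratios of -0.037 and -0.017, and those without it -0.043 and -0.029.

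Most H2B genes lay below 0 on array 1. In the class 9 of 11 members were lower there, against 55% of all gene rows, with medians of -0.049 on array 1 and -0.041 on array 2. Hist3h2ba was the highest member with a shared sign, at 0.35 and 0.48, a mean of 0.42 ± 0.091 (SD, n = 2), or 1.33-fold (limma, unadjusted p = 0.0678, 95% interval -0.053 to 0.88). Hist3h2bb-ps, a pseudogene row of the same cluster, was at -0.45 and 1.24, the largest disagreement of all 48 members after turning. As deposited it was negative in both columns, with a mean of -0.85, and Hist3h2ba had a mean of -0.064. Lower on both arrays were Hist1h2bb, at -0.33 and -0.15, and Hist1h2be, at -0.15 and -0.31. Hist1h2bc, Hist1h2bg and Hist1h2bm were also lower on both, with means from -0.11 to -0.021. As deposited, Hist1h2bb and Hist1h2be had means of -0.091 and 0.078. Hist2h2be, an H2B gene known from mouse olfactory neurons, was at -0.049 and 0.37, and Hist2h2bb at 0.039 and -0.46. Hist1h2ba, the testis H2B gene, was at -0.11 and 0.14, and Hist1h2bp at -0.13 and 0.20. The class therefore held members on both sides of 0 on array 2, 5 higher and 6 lower.

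The windows of Hist3h2ba (chr11:58948661-58948910, plus strand) and Hist1h2bb (chr13:23746484-23746733, plus strand) are shown. After turning, these H2B genes had the largest mean ratio of each sign among those with a shared sign.
Hist3h2ba: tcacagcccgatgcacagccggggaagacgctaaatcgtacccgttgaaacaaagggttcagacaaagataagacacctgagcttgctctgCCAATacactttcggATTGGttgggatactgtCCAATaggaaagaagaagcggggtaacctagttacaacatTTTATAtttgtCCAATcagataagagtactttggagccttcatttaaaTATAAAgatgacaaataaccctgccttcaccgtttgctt
Hist1h2bb: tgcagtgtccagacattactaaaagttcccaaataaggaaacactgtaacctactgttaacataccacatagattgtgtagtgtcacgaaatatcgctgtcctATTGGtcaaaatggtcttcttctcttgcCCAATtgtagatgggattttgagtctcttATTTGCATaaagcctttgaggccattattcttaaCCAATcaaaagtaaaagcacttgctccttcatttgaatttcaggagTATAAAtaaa
Both hold CCAAT boxes and a TATA box, and of this pair the octamer is in the window of Hist1h2bb only. The H2B members with the octamer had median ratios of -0.074 and -0.16, and the 2 windowed members without it, Hist1h2bp and Hist3h2ba, had medians of 0.11 and 0.34. The motifs were chosen after the values were seen, this split was not tested, and its array 2 signs turn with the orientation.

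The H3 genes with the largest means after turning were those of H3.1. Mouse genes encode the replication-coupled forms H3.1 and H3.2, and the rows of H3.1 were Hist1h3a, Hist1h3g and Hist1h3i. Hist1h3a was at -0.48 and -0.47, a mean of -0.48 ± 0.0037 (SD, n = 2) or 1.39-fold lower, the most even difference of the 3. Its limma interval was -0.93 to -0.018 (unadjusted p = 0.0451, adjusted p = 0.999995), so it did not pass the test. As deposited its mean was -0.0026. Hist1h3g was at -0.72 and 0.23 and Hist1h3i at 0.065 and -0.68, each low on a different array. As deposited, both had a shared sign, with means of -0.47 for Hist1h3g and 0.37 for Hist1h3i. Of the H3.2 rows, Hist1h3d was at 0.22 and 0.12 and Hist1h3c at 0.12 and 0.0079, both higher on both arrays. Hist1h3f was at 0.15 and -0.14, Hist2h3c1 at -0.15 and 0.016 and Hist2h3c2-ps, which RefSeq lists as protein-coding, at -0.37 and 0.11. The split by H3 form was noticed after the values were seen, was not tested and is not kept by Hist1h3a as deposited. The H3 medians were -0.041 and 0.012.

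The promoter of Hist1h3i lies at chr13:21783398-21783647, minus strand, and is shown as the H3.1 gene with a window whose array 2 ratio was the lowest.
Hist1h3i: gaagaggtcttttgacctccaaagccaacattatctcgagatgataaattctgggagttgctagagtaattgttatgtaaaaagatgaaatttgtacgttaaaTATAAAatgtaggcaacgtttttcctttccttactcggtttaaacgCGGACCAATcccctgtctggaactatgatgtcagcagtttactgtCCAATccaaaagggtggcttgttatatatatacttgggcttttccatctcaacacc
It was the single H3 window of 6 with GGTCCG, found as its reverse complement CGGACC, where its last bases are also the first of a CCAAT box. CCAAT was in 4 of 6 H3 windows and AAACACA in 0 of 6.

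H4 genes were the class with the most uniform sign on an array. All 8 members were lower on array 2, with ratios from -0.32 to -0.025 and a median of -0.19, where 42.8% of all gene rows were lower. On array 1 the same 8 genes had a median of 0.015, with 4 higher, 3 lower and Hist1h4k at exactly 0. Lower on both arrays were Hist1h4i, at -0.17 and -0.13, Hist1h4j, at -0.13 on each array, and Hist1h4h, at -0.33 and -0.025. Hist1h4c was at 0.030 and -0.32, and Hist4h4, the lone member of the Hist4 cluster, at 0.057 and -0.29. Hist2h4 and Hist1h4d were at 0.11 and -0.25 and at 0.061 and -0.19, and Hist1h4k at 0 and -0.18. All H4 genes encode the same protein, and the rows share coding sequence, so 8 rows are fewer than 8 independent readings. As deposited, array 2 gave all 8 H4 rows a positive sign. The H4 median of the mean ratios was -0.12 after turning and 0.11 without it. None of the 8 passed limma's test at an unadjusted p under 0.05, and the smallest was 0.373.

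The window of Hist1h4j, the H4 gene with the most even turned ratios, lies at chr13:21734784-21735033, plus strand. As deposited, the mean of Hist1h4j was 0.0030.
Hist1h4j: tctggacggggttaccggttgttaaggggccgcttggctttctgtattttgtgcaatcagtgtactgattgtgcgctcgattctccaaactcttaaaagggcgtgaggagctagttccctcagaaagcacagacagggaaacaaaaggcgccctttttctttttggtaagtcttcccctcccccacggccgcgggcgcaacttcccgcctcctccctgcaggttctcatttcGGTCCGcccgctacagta
GGTCCG was in 6 of 7 H4 windows, against 6.72% of all windows, and CCAAT in 2 of 7. The window without GGTCCG was that of Hist1h4h, whose mean of -0.18 was the lowest of the class. Array 1 carried most of that mean, at -0.33 against -0.025 on array 2. The motifs were chosen after the values were seen, and a link between motif and ratio was not tested.

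After turning, members higher and lower on both arrays were interspersed along the chromosome. The 35 Hist1 rows fall into 4 blocks on chromosome 13, of 8, 3, 23 and 1 rows, when separated by gaps over 200000 bases between gene starts. The block from Hist1h2bm to Hist1h2bp had medians of -0.00060 and -0.035, and the block from Hist1h4h to Hist1h2aa had medians of -0.036 and -0.058. After turning, the blocks held 1 of 8 and 4 of 23 members higher on both arrays, and 3 of 8 and 9 of 23 lower on both. The shares of all gene rows were 21.6% higher and 19.5% lower on both arrays. The block counts can change without turning, and they were not tested. Hist1h1t and Hist1h1c, which lie on either side of Hist1h4c among the members, had turned means of -0.45 and 0.25. As deposited, their means were 0.027 and 0.074. Of 3 pairs of members read away from each other within 500 bases, all had the same sign on array 2 and 1 on array 1. That pair was Hist1h2ae and Hist1h2bg, at -0.54 and -0.058 and at -0.036 and -0.18. The testis pair Hist1h2ba and Hist1h2aa, and Hist1h2an and Hist1h2bp, shared a sign on array 2 but not on array 1.

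**Figure D3:**
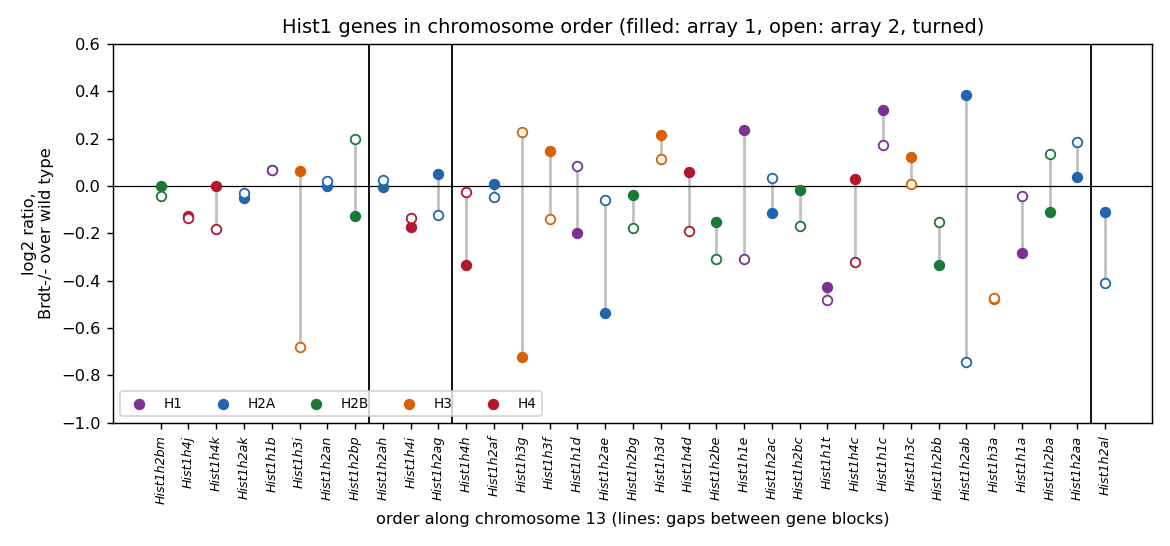
Log2 ratio of Brdt-/- over wild type (y axis) for the 35 Hist1 genes in their order along chromosome 13 (x axis, not to distance), with filled circles for array 1, open circles for turned array 2 and vertical lines at the gaps between blocks. The blocks of 8 and 23 genes both hold ratios on either side of 0.

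Other genes of histone supply were described by lists. Counts on both arrays in the lists here and below are of the turned values and can change without turning. They stand beside 21.6% of all gene rows higher and 19.5% lower on both arrays. Replacement histones are made outside replication. Of 11 replacement histone genes 6 were higher and 1 lower on both; the medians were 0.26 and 0.16. H1f0, the linker histone that accumulates in differentiated cells, was at 0.56 and 0.58, a mean of 0.57 ± 0.016 (SD, n = 2; limma, unadjusted p = 0.028, adjusted p = 0.999995). As deposited, the values of H1f0 on the arrays had opposite signs and nearly the same size. Cenpa, the H3 form of centromeres, was at 0.48 and 0.19, and H2afy2, a macroH2A gene, at -0.67 and -0.22. The median of the list's mean ratios was 0.13 after turning and 0.035 as deposited. No gene of this list passed limma's adjusted test, and the difference between replacement and clustered histones was not tested.

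Of 22 measured genes for histone transcription and mRNA processing, 4 were higher and 6 lower on both. The medians were -0.0075 and -0.041. Npat, the coactivator of histone genes, was at -0.60 and -0.21. Lsm11 and Nfyb, a part of the histone pre-mRNA snRNP and a subunit of NF-Y, were at -0.021 and 0.56 and at 0.33 and 0.16. Among 12 histone chaperones 5 were higher and 0 lower on both turned arrays. Chaf1a and Asf1b, genes of chaperones for H3 and H4, were at 0.22 and 0.23 and at 0.22 and 0.20. As deposited, each of this pair had opposite signs on the arrays. The median of the chaperones' mean ratios was 0.043 after turning and -0.0074 as deposited. Npm1, a nucleolar chaperone, was at 0.066 and 0.15. None of these genes passed the adjusted test.

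Genes of dividing cells were measured beside the histones. DNA replication genes had medians of 0.16 and 0.074 (24 genes, 11 higher and 0 lower on both arrays), led by Prim1, a primase subunit, at 0.44 and 0.048. Pola1 and Gins1, of the replication machinery, were at 0.40 and 0.063 and at 0.33 and 0.10. Mitosis genes had medians of 0.50 and -0.16 (20 genes, 6 higher and 1 lower on both), with Aurkb at 1.13 and 0.0041, Bub1 at 0.84 and 0.15 and Ccnb1 at 0.71 and 0.099. On array 1, 17 of 48 histone members and 18 of 20 mitosis genes were higher, against 44.9% of all gene rows. On array 2 the counts were 18 of 48 and 7 of 20, against 57.1%, and neither difference was tested. The median of mean ratios was 0.12 after turning and 0.056 as deposited for DNA replication, and 0.21 and 0.36 for mitosis.

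Markers of other cell types gave large ratios, for granulocyte genes mainly on array 1 and for erythroid genes mainly on array 2. None passed limma's adjusted test. After turning, 4 of 13 granulocyte and 1 of 11 erythroid genes were past 1.5-fold higher on both arrays, against 0.359% of all rows. Of 15 germ cell genes, 0 were past it on both arrays with a shared sign. Granulocyte genes had medians of 3.14 and 0.16 (13 genes, 9 higher and 1 lower on both arrays), with S100a8 at 5.54 and 0.45, Ltf at 4.23 and 1.32 and S100a9 at 4.36 and 0.73. Erythroid genes had medians of -0.077 and 0.98 (11 genes, 4 higher and 1 lower on both), with Hba-a2 at 0.73 and 1.15, Hba-a1 at -0.10 and 1.56 and Alas2 at -0.077 and 1.53. Germ cell genes had medians of -0.20 and 0.068 (15 genes, 1 higher and 5 lower on both), with Prm1 at -1.07 and -0.57, Stra8 at -1.93 and 0.54 and Sycp3 at 0.65 and 0.32. The 7 measured histone variants of germ cells, which include the 3 testis members above, had medians of -0.11 and 0.14. The lists are of ratios, so no level of any marker was available here, and the part of these cell types in the histone ratios was not tested. Among the other variants Hils1, of spermatids, was at -2.51 and 0.48, and H1fnt, also of spermatids, at 1.62 and 0.23.

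**Figure D4:**
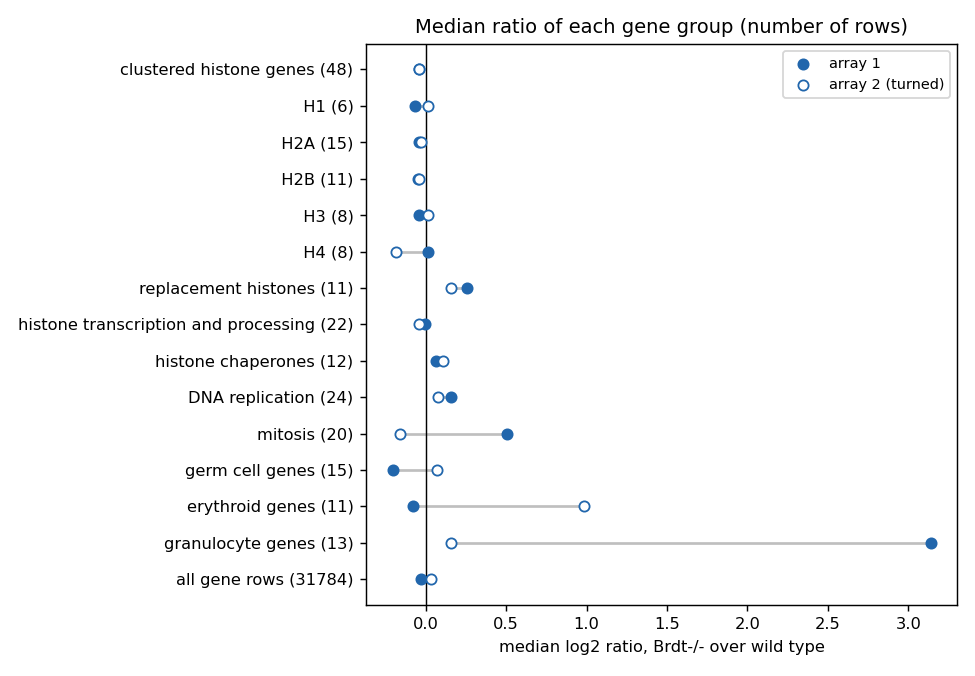
Median log2 ratio of Brdt-/- over wild type (x axis) for the clustered histone genes, their classes and the other gene lists (number of rows in brackets), with filled circles for array 1 and open circles for array 2 after turning. The histone classes lie between -0.19 and 0.015, while the granulocyte list reaches 3.14 on array 1 and the erythroid list 0.98 on array 2.

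The 2 arrays limit what could be seen. In simulated data of 31784 genes made by dealing each array's values to random genes, limma's adjusted test called 0 of 50 genes changed by a log2 of 1 and 37 of 50 changed by 3. The dealing removed the correlation of -0.26 between the turned arrays. The spread within a gene can therefore differ from that of the data, and the counts describe the simulated data only. For 44 of the 48 members, limma's unadjusted 95% interval of the turned mean lay within 2-fold of equality in either direction. The same share over all gene rows was not counted, so no difference from other genes can be read from it. A shared change would cancel in that mean if array 2 was wrongly turned, so these intervals bound a change only if the turning is right. The exceptions were Hist1h2ab, Hist1h3g, Hist1h3i and Hist3h2bb-ps, the rows whose ratios were past 1.5-fold on 1 array.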

How the data were processed

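Pituitary RNA pools of Brdt-/- and wild-type mice were compared on 2 two-colour arrays, and each array counts as 1 sample. The authors deposited 1 signed fold score per gene name and array, with 31840 rows; every value is at or above 1 or at or below -1. The sources used here do not give background correction, normalization, probe averaging or the ratio's direction. Labelling used an Agilent Low Input Quick Amp kit, per the labels' protocols.

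Each fold was converted to a signed log2 value, and array 2 was turned because the labels exchange the dyes. The 56 control rows were left out, which left 31784. limma 3.58.1 (R 4.3.3; lmFit, eBayes, intercept only, 1 residual degree of freedom) tested each row against 0 across all genes, and p-values were adjusted by Benjamini-Hochberg (called under 0.05). With 2 arrays, an exact sign-flip test has a smallest p of 0.5. The fit was tested on simulated data. Members and lists are described by counts and medians beside all gene rows.

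Any member could be named, with full values for the 4 largest means per class, testis forms and unadjusted p under 0.05; other lists give up to 3 genes of largest mean. Whether pools of a genotype share animals is not stated, so p-values measure only the spread between arrays. The members, lists and the turning of array 2 were chosen with earlier results of these data known, and the motifs and a check without pseudogene rows after the data were seen. Alternatives were the orientation, single arrays, centring, scaling, fold thresholds, the test and the row set. Promoters are RefSeq sequences of GRCm38.p6 (41 of 48 members, 42 windows). Versions were Python 3.11.15, pandas 2.3.3 and matplotlib 3.10.9.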

Additional observations from a re-analysis of the deposited data

Results flagged for a closer look

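The E1A spike-in rows are control features outside the comparison of genotypes, and they carried signal. Their mean log2 size over both arrays was 1.58, against 0.0675 for the negative control row. Each of the 10 rows kept its sign between the columns as deposited, with r = 0.9997 across rows. Turning array 2 rests on these rows having followed the dyes, which no label states.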

How the results depend on the processing

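With array 2 not turned, members higher and lower on both arrays numbered 11 each, the member median moved to -0.00062 and the class medians to 0.014 (H1), -0.015 (H2A), -0.064 (H2B), 0.024 (H3) and 0.11 (H4). The lists then stood at 0.035 for replacement histones, 0.026 for histone transcription and processing, -0.0074 for chaperones, 0.056 for DNA replication and -0.47 for erythroid genes, and Brdt at 0.067. The count of all genes past 1.5-fold the same way was 1008 in place of 258. The unadjusted count of genes was then 3254 in place of 703, with 0 past the adjusted test. These changes follow from the turned sign. Leaving out a replicate leaves 1 array, on which no second array has to agree: 2921 to 4393 genes and 1 to 3 members were past 1.5-fold, 17 to 18 members were higher and 29 lower on either array alone. Medians on single arrays ran from -0.042 to -0.040 for the members, -0.064 to 0.012 (H1), -0.043 to -0.029 (H2A), -0.049 to -0.041 (H2B), -0.041 to 0.012 (H3), 0.16 to 0.26 for replacement histones, -0.041 to -0.0075 for transcription and processing and 0.066 to 0.11 for chaperones. The member median was -0.068 after centring and -0.072 after centring and scaling, where H2B stood at -0.027. Without pseudogene rows, a setting chosen after seeing the data, H2B stood at -0.057. Other thresholds gave 1696 genes and 3 members at 1.2-fold and 36 genes and 0 members at 2-fold. The count of 0 genes called by limma became 703 at an unadjusted p and 2 with the ordinary statistic. Leaving out olfactory and vomeronasal receptor rows or testis-type members, or adding Gm13646, the row found by an older symbol, left counts within 1.5 times and the member median within the spread between arrays. Each array's ratio is the difference within 1 pair of pools, so the test used is already paired by array, and no further block could be added. With no intensities in hand, dim rows could not be set apart.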
